A study of Homo sapiens and Homo sapiens
Mus with 12 samples.

Results

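The nuclear genes of respiratory chain complexes II, III and IV and of the ATP synthase (complex V) were described in bladder cancer cells with and without CDH11 knockdown (KD). Members were the protein-coding genes whose symbols name a subunit, a subunit isoform, an assembly factor or an inhibitor in the families SDH, SDHAF, UQCR, UQCC, CYC1, COX and ATP5, with former ATP5 symbols matched to present ones. There were 66 of them, 50 subunits or inhibitors and 16 assembly factors: 8 genes of complex II, 13 of complex III, 26 of complex IV and 19 of complex V. All 66 were among the 21466 genes with counts in cultured cells, and 63 were among the 26813 human genes listed for tumors, where COX4I2, COX6A2 and COX7A1 were not listed. A filter on low counts left 59 members of 9859 genes in cells and 56 members of 9184 genes in tumors, and the other members are given by their counts.

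UM-UC-3 is a cell line from an advanced bladder cancer. The shCtrl cells carried a non-silencing GIPZ lentiviral hairpin, and the CDH11 KD cells carried either of 2 hairpins against CDH11, sh#1 or sh#2. Each was a pool of infected cells sorted for GFP, so that all groups share the vector and the sort. Cultured cells (3 libraries of each group) were harvested after 24 hours of preculture. Tumors (5 libraries of each group) came from the same 3 pools grown in male BALB/cAJcl-nu/nu nude mice, which were 5 weeks old at inoculation and were sampled 4 weeks after transplantation. Nude mice lack T cells but keep other host cells. Library totals were 2273182 to 2777019 counts in cells and 414849 to 1248977 human counts in tumors, of which the sh#1 tumor 1 library was the smallest. The targeted gene, CDH11, had 2 to 4 counts in shCtrl, 0 to 1 in sh#1 and 0 to 2 in sh#2 cells, and 5 to 32, 1 to 9 and 2 to 14 counts in the tumors. These counts are low and the ranges touch or overlap, so they check the labels only weakly. Mouse counts made up 10.4 to 14.4% of the human and mouse total in shCtrl, 10.4 to 30.0% in sh#1 and 13.0 to 18.8% in sh#2 tumors. The 3 library mixes of the tumors held 1 group each, so mix and group cannot be told apart.

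Complex II (succinate dehydrogenase) oxidizes succinate and passes electrons to ubiquinone. Complex III (the cytochrome bc1 complex) moves them to cytochrome c and complex IV (cytochrome c oxidase) to oxygen, both pumping protons, and complex V lets the protons return through a ring in the membrane to make ATP in its F1 head. Complexes III, IV and V mix nuclear subunits with a few encoded by mitochondrial DNA, whereas every subunit of complex II is nuclear. Assembly factors insert cofactors and join subunits but do not stay in the finished enzyme.

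The members together took 1.69 to 1.77% of all counts in shCtrl cells, 1.82 to 1.85% in sh#1 and 1.65 to 1.66% in sh#2 cells. In tumors the share was 1.07 to 1.37% in shCtrl, 0.907 to 1.22% in sh#1 and 0.970 to 1.16% in sh#2. The cell groups did not overlap, with sh#1 above and sh#2 below shCtrl, and the tumor groups did. This order of plain shares differs from the order after TMM scaling, which divides each library by a factor that centers most genes, and the factors were 1.07 to 1.09 in shCtrl, 1.02 to 1.04 in sh#1 and 0.897 to 0.905 in sh#2 cells. All CPM below are counts divided by the TMM-scaled library total on the usual CPM scale, and every difference is therefore relative to the bulk of the genes. With library totals alone the median of all genes in cells moved from 0.00 to -0.16 for CDH11 KD and from -0.01 to -0.265 for sh#2 (log2), and that of the members moved with it, from 0.14 to -0.03 and from 0.12 to -0.14. The gap between members and all genes kept its size, 0.13 under both scalings for CDH11 KD and 0.12 under both for sh#2.

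**Figure D1:**
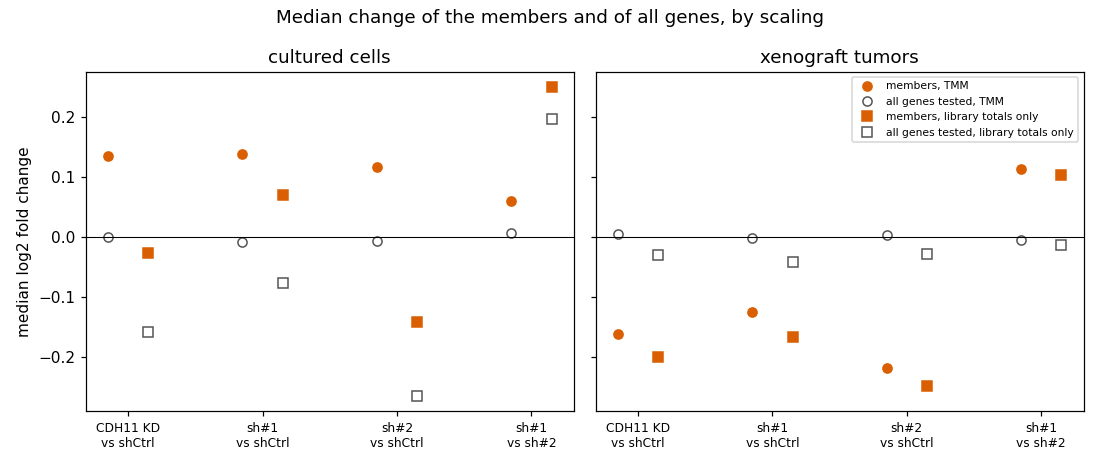
Median log2 fold change of the members (filled) and of all genes tested (open) in each comparison, with TMM scaling (circles) and library totals only (squares). In cells both medians shift together when TMM is left out, from 0.12 to -0.14 for the members in sh#2, while in tumors the members stay below all genes in the 3 comparisons with shCtrl.

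The question in cultured cells was which of these genes differed between CDH11 KD (n = 6) and shCtrl (n = 3). Of 59 members tested, 11 were higher and 1 was lower, at q values under 0.05 in the quasi-likelihood test of edgeR. That is 18.6% and 1.69% of the members, where among all genes tested 9.12% were higher and 8.32% lower. The median log2 fold change was 0.14 over the members and 0.00 over all genes, and 42 members had a positive and 17 a negative value. The 11 that rose were 4 subunits of complex III, 4 subunits and 1 assembly factor of complex IV and 2 subunits of complex V. With both hairpins as 1 group, differences between the hairpins count as spread. In the fit of 3 groups, where each hairpin has its own mean and CDH11 KD is their average, 25 were higher and 5 lower. With library totals alone 3 members were higher (COX20, COX4I1 and ATP5PO) and 2 lower (UQCC3 and ATP5MC3), with 28 positive and 31 negative values, so the other calls hold only relative to the bulk of the genes. Without shCtrl library 1, 2 or 3 the number of higher members was 3, 5 or 3, and the number of lower members was 0 each time. Shares of all genes past the threshold were not counted for these alternative fits.

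In complex III, the genes that rose were the core proteins UQCRC1 and UQCRC2, which form the large part of the complex that faces the matrix, UQCRB, which helps to bind ubiquinone, and UQCRH, the hinge protein beside cytochrome c1. UQCRB was measured at 1049, 983 and 974 CPM in the shCtrl, 1062, 1176 and 1248 CPM in the sh#1 and 1479, 1343 and 1398 CPM in the sh#2 cells. The sh#2 cells were highest and no CDH11 KD library fell below a shCtrl library (log2 fold change 0.36 ± 0.10, q = 0.0219). UQCRC1 stood at 110.2, 117 and 101 CPM in the shCtrl, 126, 128 and 129.6 CPM in the sh#1 and 154, 141 and 155 CPM in the sh#2 cells, again without overlap (0.34 ± 0.10, q = 0.026). UQCRC2 was measured at 163, 178 and 159 CPM in the shCtrl, 214, 219.5 and 211 CPM in the sh#1 and 206, 184 and 206 CPM in the sh#2 cells and UQCRH at 545, 614 and 615 CPM in the shCtrl, 667, 684 and 697 CPM in the sh#1 and 744, 742 and 751 CPM in the sh#2 cells. In both, every CDH11 KD library lay above every shCtrl library, with log2 fold changes of 0.31 ± 0.09, q = 0.0194 and 0.27 ± 0.08, q = 0.0307. The assembly factor UQCC3, which acts early on cytochrome b, went the other way. UQCC3 was found at 44.5, 42.2 and 44.6 CPM in the shCtrl, 35.7, 34.3 and 33.1 CPM in the sh#1 and 31.3, 28.2 and 24.8 CPM in the sh#2 cells. All 6 CDH11 KD libraries lay below the shCtrl libraries (-0.48 ± 0.13, q = 0.0181), and UQCC3 was the only member that fell in this comparison.

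In complex IV, COX4I1 encodes the ubiquitous form of the largest nuclear subunit, COX5A a subunit at its matrix side, COX7B and COX7C small subunits in the membrane, and COX20 a chaperone of the mitochondrially encoded subunit 2. COX4I1 was measured at 420.0, 451 and 429.9 CPM in the shCtrl, 540.0, 548 and 504 CPM in the sh#1 and 589.8, 633 and 594 CPM in the sh#2 cells, rising in steps that did not overlap (0.39 ± 0.09, q = 0.00557). COX20 had the largest change of any member, from 107, 129.6 and 124 CPM in shCtrl to 153, 154 and 204 CPM in sh#1 and 248, 229 and 284 CPM in sh#2 cells (0.82 ± 0.20, q = 0.0152). COX20 had too few counts in tumors to be tested there. Whether the counts of cells and of tumors treat this gene alike was not tested. COX7C stood at 463, 519 and 517 CPM in the shCtrl, 608, 639 and 649.6 CPM in the sh#1 and 636, 667 and 679 CPM in the sh#2 cells, with both hairpins above shCtrl (0.37 ± 0.08, q = 0.00426). COX5A (0.31 ± 0.09, q = 0.0242) and COX7B (0.26 ± 0.08, q = 0.0347) rose by less and did not overlap either, with COX5A at 159, 166 and 173 CPM in the shCtrl, 196, 194 and 237 CPM in the sh#1 and 204, 202 and 198 CPM in the sh#2 cells and COX7B at 370.4, 396 and 374 CPM in the shCtrl, 465, 449 and 485 CPM in the sh#1 and 466, 419 and 437 CPM in the sh#2 cells. 

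In complex V, ATP5PO (the stalk protein OSCP, which joins the F1 head to the stator) and ATP5ME (subunit e, a small protein of the membrane part where enzyme dimers form) rose. ATP5PO was found at 298, 330.1 and 281 CPM in the shCtrl, 359, 381 and 402 CPM in the sh#1 and 444, 425 and 450.5 CPM in the sh#2 cells, with no overlap (0.44 ± 0.09, q = 0.00406). An annotated gene without a symbol shares 63.8% of the ATP5PO transcript on the same strand, so these counts may include another gene. For ATP5ME the values were 197, 229 and 202 CPM in the shCtrl, 223, 268 and 289 CPM in the sh#1 and 229, 249 and 284 CPM in the sh#2 cells, and the lowest CDH11 KD library lay under the highest shCtrl library (0.30 ± 0.10, q = 0.0491). ATP5ME was no longer past the threshold in 12 of 17 alternative fits. ATP5MF, subunit f beside it, did not pass the test (0.06 ± 0.08, q = 0.642, and -0.09 with library totals alone), with 235, 234 and 242 CPM in the shCtrl, 245, 270.4 and 265 CPM in the sh#1 and 230.5, 248 and 228 CPM in the sh#2 cells. ATP5MF shares 37.2% of its transcript with ATP5MF-PTCD1 and PTCD1. The 5 genes of the F1 head had positive log2 fold changes of 0.02 to 0.22, none past the threshold in edgeR, with 2 at an unadjusted p under 0.05 and 1 called by DESeq2.

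**Figure D2:**
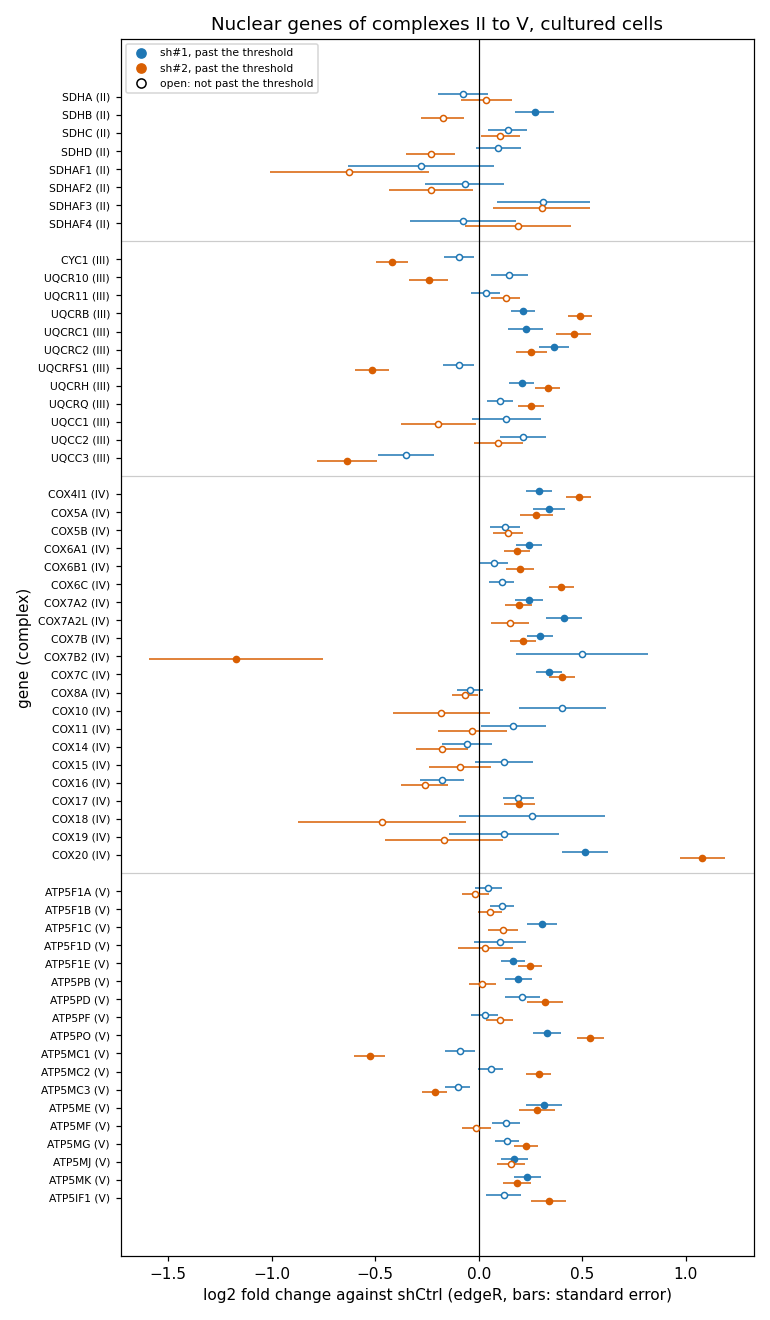
Log2 fold change of each member tested in cultured cells for sh#1 (blue) and sh#2 (orange) against shCtrl, with edgeR standard errors as bars and filled points for q under 0.05. Most subunits lie to the right of 0 for both hairpins, and 7 members, among them ATP5MC1, CYC1, UQCRFS1 and COX7B2, are past the threshold below 0 for sh#2.

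In complex II, the log2 fold changes of the catalytic flavoprotein SDHA, the iron-sulfur protein SDHB and the membrane anchors SDHC and SDHD were -0.02, 0.07, 0.12 and -0.05, with SDHB and SDHC turning to -0.08 and -0.04 with library totals alone. For both hairpins together, no complex II gene passed edgeR or DESeq2 or had an unadjusted p under 0.05. The 2 hairpins differed in SDHB, at 83.4, 77.5 and 89.6 CPM in the shCtrl, 100.5, 99.5 and 102 CPM in the sh#1 and 71.9, 70.2 and 80.4 CPM in the sh#2 cells. It rose in sh#1 (0.27 ± 0.10, q = 0.034), was not past the threshold in sh#2 (-0.17 ± 0.10, q = 0.188), and was higher in sh#1 than in sh#2 (0.44 ± 0.10, q = 0.000614). SDHD was also higher in sh#1 than in sh#2 (0.33 ± 0.12, q = 0.0334), with 68.9, 72.2 and 70.1 CPM in the shCtrl, 81.2, 74.3 and 70.5 CPM in the sh#1 and 70.5, 48.3 and 60.9 CPM in the sh#2 cells. DESeq2 called neither the rise of SDHB in sh#1 nor the difference in SDHD, but did call the difference in SDHB.

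The hairpins were then compared with shCtrl one at a time. In sh#1 cells 20 members (33.9%) were higher, where 11.8% of all genes were, and 0 were lower, where 10.6% of all genes were (edgeR; 1 member was lower at an unadjusted p under 0.05 and 0 by DESeq2). In sh#2 cells 23 members (39.0%) were higher and 7 (11.9%) lower, against 19.5% and 18.8% of all genes. The groups share the shCtrl libraries. Side by side, 15 members were higher with each hairpin, 5 with sh#1 only past the threshold and 8 with sh#2 only past the threshold. The share of all genes higher with both hairpins was not counted, so these counts do not set the members apart from other genes. No member was past the threshold in opposite directions. The largest rises in sh#1 were those of COX20 (0.51 ± 0.11, q = 0.0019), COX7A2L (0.41 ± 0.09, q = 0.000261) and UQCRC2 (0.36 ± 0.07, q = 0.000163). COX7A2L, which helps complexes III and IV to associate, stood at 95.7, 113 and 108 CPM in the shCtrl, 143, 146 and 134 CPM in the sh#1 and 126, 113 and 112 CPM in the sh#2 cells. The largest in sh#2 were those of COX20 (1.08 ± 0.11, q = 9.03e-08), ATP5PO (0.54 ± 0.07, q = 1.81e-09) and UQCRB (0.49 ± 0.06, q = 1.21e-09). These counts for sh#2 rest on the scaling, and with library totals alone 6 members were higher and 19 lower. The median of all genes was then -0.265, and the share of all genes past the threshold was not counted with that scaling.

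The 7 members that fell in sh#2 cells included the 2 redox subunits of complex III with nuclear genes. Cytochrome c1, CYC1, was measured at 386, 389 and 375 CPM in the shCtrl, 393, 386 and 299 CPM in the sh#1 and 281, 301 and 278 CPM in the sh#2 cells (-0.42 ± 0.08, q = 1.67e-05 for sh#2). The Rieske iron-sulfur protein, UQCRFS1, was found at 182, 185 and 166 CPM in the shCtrl, 162, 167 and 169 CPM in the sh#1 and 121, 128 and 124 CPM in the sh#2 cells (-0.52 ± 0.08, q = 5.96e-07). In both genes all sh#2 libraries lay below all shCtrl libraries. The small subunit UQCR10 (-0.24 ± 0.09, q = 0.0369) and UQCC3 (-0.64 ± 0.14, q = 0.00033) fell as well, so that complex III held 5 members that rose and 4 that fell in sh#2 in edgeR. DESeq2 gave 5 higher and 3 lower in complex III. For UQCR10 the groups overlapped, with the highest sh#2 library at 99.4 CPM and the lowest shCtrl library at 99.2 CPM. The other 3 were ATP5MC1, ATP5MC3 and COX7B2.

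ATP5MC1, ATP5MC2 and ATP5MC3 are 3 genes whose mature product is the same protein, subunit c of the membrane ring, and they did not move together. ATP5MC1 stood at 301, 289 and 282 CPM in the shCtrl, 283, 299 and 237 CPM in the sh#1 and 188, 205 and 212 CPM in the sh#2 cells, lowest in every sh#2 library (-0.53 ± 0.08, q = 8.36e-08). ATP5MC2 was measured at 923, 994 and 911 CPM in the shCtrl, 1017, 1032 and 897 CPM in the sh#1 and 1067, 1203 and 1185 CPM in the sh#2 cells and rose in sh#2 (0.29 ± 0.06, q = 0.000117). ATP5MC3 had 642, 713 and 710.3 CPM in the shCtrl, 632, 659 and 635 CPM in the sh#1 and 586, 571 and 626 CPM in the sh#2 cells and fell in sh#2 (-0.21 ± 0.06, q = 0.00382). In sh#1 the 3 genes gave -0.09, 0.06 and -0.10, and for both hairpins together -0.29, 0.18 and -0.16, none past the threshold. In 17 alternative fits for both hairpins together, ATP5MC1 was past the threshold in 2, ATP5MC2 in 1 and ATP5MC3 in 2. With library totals alone ATP5MC3 was past it, at -0.31.

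The tissue isoforms of complex IV were nearly silent. COX4I2, COX6A2 and COX8C had 0 counts in all 9 cell libraries, COX7A1 had at most 1 and COX6B2 at most 2. Their ubiquitous partners were well measured, from 622 to 681 CPM for COX8A in shCtrl cells. The log2 fold changes for CDH11 KD were 0.22 for COX6A1, 0.14 for COX6B1 (-0.03 with library totals alone), 0.22 for COX7A2, 0.29 for COX7A2L and -0.05 for COX8A, none past the threshold. COX7B2, a form of COX7B best known from testis, was present at 3 to 24 counts a library. It was found at 3.54, 6.97 and 6.86 CPM in the shCtrl, 9.84, 7.82 and 7.05 CPM in the sh#1 and 2.80, 3.34 and 1.46 CPM in the sh#2 cells, lower in sh#2 (-1.17 ± 0.42, q = 0.0228) and with the largest difference between the hairpins of any member (1.67 ± 0.40, q = 0.00099). The fall in sh#2 was lost in 4 of 15 alternatives, DESeq2 among them, and the difference between the hairpins in 0 of 15. ATP5MGL and UQCRHL, copies of ATP5MG and UQCRH, had at most 5 and 2 counts in cells.

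In the direct comparison of sh#1 with sh#2 cells, 11 members (18.6%) were higher in sh#1 and 7 (11.9%) lower, where 11.2% and 13.5% of all genes were. After COX7B2, the largest excess in sh#1 among those past the threshold was that of COX10, the enzyme that makes heme O for complex IV (0.59 ± 0.22, q = 0.0461), at 12.2, 13.5 and 12.2 CPM in the shCtrl, 16.0, 16.1 and 18.0 CPM in the sh#1 and 11.7, 11.0 and 10.7 CPM in the sh#2 cells. This call was lost in 8 of 16 alternatives, DESeq2 among them. The largest deficits were in COX20 (-0.56 ± 0.10, q = 0.000391), COX6C (-0.29 ± 0.06, q = 0.000217) and UQCRB (-0.28 ± 0.06, q = 0.000314). COX6C, a small subunit of complex IV, was measured at 742, 791 and 762 CPM in the shCtrl, 759, 822 and 896 CPM in the sh#1 and 964, 1012 and 1048 CPM in the sh#2 cells. DESeq2 gave 6 higher and 6 lower, and with library totals alone 30 were higher and 1 lower. With library totals alone the median of all genes was 0.197, beside 0.250 for the members.

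Subunits and assembly factors differed in their medians. Over the 43 subunits tested the median log2 fold change for CDH11 KD was 0.18, with 10 higher and 0 lower in edgeR (3 lower at an unadjusted p under 0.05 and 0 by DESeq2). Over the 16 assembly factors it was 0.01, with COX20 higher and UQCC3 lower. Of 33 other assembly and import genes tested, LONP1, COA8 and LRPPRC rose and COA7 fell, which is 9.09% higher and 3.03% lower against the 9.12% and 8.32% of all genes, and their median was 0.02. LONP1, a protease of the mitochondrial matrix, was measured at 52.8 ± 2.26 CPM in shCtrl and 109 ± 28.8 CPM in CDH11 KD cells (1.04 ± 0.20, q = 0.00321). COA7, a factor for complexes I and IV, fell from 29.7 ± 4.87 to 16.7 ± 3.58 CPM (-0.83 ± 0.18, q = 0.00449). COA8 (0.45 ± 0.14, q = 0.0373) and LRPPRC, which stabilizes mitochondrial messenger RNA (0.35 ± 0.11, q = 0.0311), rose. CYCS, cytochrome c itself, rose in sh#1 (0.36 ± 0.08, q = 0.000418) and fell in sh#2 (-0.24 ± 0.08, q = 0.0177), and for both hairpins together the 2 carrier and subunit genes tested had a median of 0.16. All ± values on CPM are SDs (n = 3 for shCtrl and n = 6 for CDH11 KD), and those on log2 fold changes are standard errors. The 36 genes with NDUFA, NDUFB, NDUFC, NDUFS and NDUFV symbols, taken by symbol as complex I and the nearest group, had 4 higher and 2 lower and a median of 0.09. The choice by symbol did not leave out NDUFA4, a complex IV subunit. The difference between the groups of genes was not tested.

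The partner subunits encoded by mitochondrial DNA moved in both directions. Of the 6 genes, MT-CO1 (subunit 1 of complex IV) rose, with 1183 ± 12.8 CPM in shCtrl and 1845 ± 436 CPM in CDH11 KD cells (0.64 ± 0.18, q = 0.0263). MT-CO3 (-0.98 ± 0.14, q = 0.00019), MT-ATP6 (-0.82 ± 0.11, q = 6.95e-05) and MT-ATP8 (-1.44 ± 0.23, q = 0.00265) fell, while MT-CYB and MT-CO2 gave -0.03 and -0.12 without passing. Thus 16.7% were higher and 50% lower, against 9.12% and 8.32% of all genes. In sh#1 cells 1 of the 6 was higher and 5 were lower, where 11.8% and 10.6% of all genes were. In sh#2 cells 2 were higher and 3 lower, where 19.5% and 18.8% of all genes were. At least 1 of the 6 therefore moved in opposite directions with the 2 hairpins. MT-ATP8 and MT-ATP6 overlap on the genome, so their counts are not separate measurements.

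Nuclear genes of the respiratory chain are known to share promoter sites for the factors NRF1, GABPA (an ETS factor) and YY1. Of 6 regulators of respiratory chain genes tested, 3 (50%) were lower in CDH11 KD cells, against 8.32% of all genes, and 0 were higher, against 9.12%. The 3 were PPRC1, YY1 and TFB2M, so NRF1 and GABPA were not among them. YY1 was measured at 159 ± 16.5 CPM in shCtrl and 102 ± 26.7 CPM in CDH11 KD cells (-0.64 ± 0.19, q = 0.0345), and in sh#2 alone the log2 fold change was -1.03 ± 0.10, q = 2.81e-13. PPRC1, a coactivator of these factors, gave -0.93 ± 0.18, q = 0.00231 and TFB2M, a factor for transcription of mitochondrial DNA, -0.97 ± 0.31, q = 0.0391. RefSeq promoters (GRCh38.p14, 250 bases before to 50 after the start) were at hand for 52 of the 66 members, with 62 starts. On either strand, the NRF1 core GCGCATGC was in 22.6% of the 62, against 3.05% of all 35116 promoters. The ETS core CCGGAAG was in 38.7% against 10.3%, and the YY1 core AAGATGGC in 12.9% against 2.89%. A match of letters does not show binding. Promoters of 5 members are printed because they stand for the different motif contents and directions. UQCRC1 and ATP5PO, which rose in CDH11 KD cells, carry the YY1 core 24 and 39 bases after the start, COX4I1 carries the ETS core, ATP5ME carries the NRF1 and ETS cores, and ATP5MC1, which fell in sh#2, carries none of the 3. Capitals mark the cores on either strand, and the windows lie at chr3:48609597-48609896 (minus strand), chr21:33915755-33916054 (minus), chr16:85799445-85799744 (plus), chr4:674227-674526 (minus) and chr17:48892537-48892836 (plus) in that order.
UQCRC1: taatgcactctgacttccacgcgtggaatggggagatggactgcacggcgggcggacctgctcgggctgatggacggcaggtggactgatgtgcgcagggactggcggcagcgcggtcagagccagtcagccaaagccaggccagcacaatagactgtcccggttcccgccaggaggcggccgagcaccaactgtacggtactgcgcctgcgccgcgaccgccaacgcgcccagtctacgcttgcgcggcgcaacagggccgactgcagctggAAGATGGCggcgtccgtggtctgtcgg
ATP5PO: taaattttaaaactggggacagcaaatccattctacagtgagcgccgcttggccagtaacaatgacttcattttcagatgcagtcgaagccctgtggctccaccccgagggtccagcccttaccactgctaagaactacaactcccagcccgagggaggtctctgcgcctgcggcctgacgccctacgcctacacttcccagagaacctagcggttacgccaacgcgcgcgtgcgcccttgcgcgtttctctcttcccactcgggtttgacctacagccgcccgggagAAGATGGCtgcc
COX4I1: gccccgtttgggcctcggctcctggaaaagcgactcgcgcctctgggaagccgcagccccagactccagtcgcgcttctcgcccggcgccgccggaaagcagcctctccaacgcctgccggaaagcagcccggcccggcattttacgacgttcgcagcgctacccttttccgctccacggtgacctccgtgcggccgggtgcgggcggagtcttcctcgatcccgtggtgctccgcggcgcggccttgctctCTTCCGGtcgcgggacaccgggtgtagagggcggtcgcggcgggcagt
ATP5ME: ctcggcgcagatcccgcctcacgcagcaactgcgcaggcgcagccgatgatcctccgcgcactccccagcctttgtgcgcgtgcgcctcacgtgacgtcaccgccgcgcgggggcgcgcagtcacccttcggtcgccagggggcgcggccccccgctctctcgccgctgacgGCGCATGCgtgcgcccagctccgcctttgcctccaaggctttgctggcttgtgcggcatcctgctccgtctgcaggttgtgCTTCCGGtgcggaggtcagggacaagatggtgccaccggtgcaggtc
ATP5MC1: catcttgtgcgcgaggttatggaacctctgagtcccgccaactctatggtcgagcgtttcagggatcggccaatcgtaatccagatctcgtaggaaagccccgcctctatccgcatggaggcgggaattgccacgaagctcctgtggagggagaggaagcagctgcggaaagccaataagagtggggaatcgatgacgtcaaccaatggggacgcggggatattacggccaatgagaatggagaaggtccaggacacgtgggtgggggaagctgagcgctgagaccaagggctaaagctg

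Of the 52 members with an entry, 29 (55.8%) carried at least 1 of the 3 cores, against 17.6% of all genes with an entry. By call, 6 of 10 members with an entry that were higher in CDH11 KD cells, 14 of 21 higher and 0 of 4 lower in sh#2 cells, and 1 of 2 lower in CDH11 KD tumors carried a core. For the 10 higher in CDH11 KD cells, the NRF1, ETS and YY1 cores were in 1, 4 and 2, beside 12, 22 and 7 of the 52 members. These numbers are small, and the difference between them was not tested. Whether the level of YY1 bears on members with its core was not tested either.

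In xenograft tumors the same comparison had CDH11 KD (n = 10) against shCtrl (n = 5), with a threshold of q under 0.1. Of 56 members tested, 6 (10.7%) were lower, where 0.817% of all genes were, and 0 were higher, where 0.697% of all genes were (edgeR; 0 higher at an unadjusted p under 0.05 and 0 by DESeq2). Negative values were seen for 50 members and positive values for 6, and the median log2 fold change was -0.16, beside 0.01 over all genes. In bulk tumors, fewer cells of a type and less RNA per cell cannot be told apart. The 6 were spread over complexes III, IV and V.

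CYC1, cytochrome c1, was measured at 619, 679, 578, 618 and 411 CPM in the shCtrl, 330.2, 489, 359.6, 492 and 333 CPM in the sh#1 and 432, 451, 448, 505 and 361 CPM in the sh#2 tumors. Only shCtrl tumor 5 reached down into the CDH11 KD range (-0.47 ± 0.12, q = 0.0459). UQCC3 stood at 24.9, 44.4, 22.8, 24.0 and 30.6 CPM in the shCtrl, 25.0, 17.0, 20.2, 15.2 and 13.1 CPM in the sh#1 and 15.6, 24.2, 19.2, 16.0 and 11.5 CPM in the sh#2 tumors (-0.73 ± 0.20, q = 0.0802), with overlap between the groups, on 6 to 41 counts a tumor. UQCC3 was the 1 member past the threshold in both systems, and it was lower in each.

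COX8A, the small subunit VIII of complex IV, was found at 653, 537, 575, 682 and 426 CPM in the shCtrl, 386, 564, 396, 509 and 398 CPM in the sh#1 and 358, 388, 497, 424 and 411 CPM in the sh#2 tumors (-0.41 ± 0.11, q = 0.0802). For COX6C the values were 536, 490.1, 519.9, 606 and 412 CPM in the shCtrl, 402, 399, 401, 451 and 362 CPM in the sh#1 and 348, 339, 431, 497 and 378 CPM in the sh#2 tumors (-0.36 ± 0.10, q = 0.0936). In both genes most shCtrl tumors lay above most CDH11 KD tumors, but the ranges overlapped. Another annotated gene shares 35.4% of the COX8A transcript.

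In the membrane part of complex V, ATP5MF and ATP5MJ (a small proteolipid) fell. ATP5MF was measured at 278, 283, 299, 296 and 170.1 CPM in the shCtrl, 191, 248, 169.7, 194 and 173 CPM in the sh#1 and 168, 184, 208, 191 and 176 CPM in the sh#2 tumors (-0.49 ± 0.12, q = 0.0302). Its shCtrl tumor 5 had 170.1 CPM, far below the other 4 control tumors, which lay above every CDH11 KD tumor. ATP5MJ stood at 207, 185, 189, 238 and 185 CPM in the shCtrl, 144, 159, 167, 157 and 137 CPM in the sh#1 and 151, 116, 137, 175 and 128 CPM in the sh#2 tumors (-0.45 ± 0.11, q = 0.0284) and was the 1 of the 6 whose groups did not overlap. ATP5PO, which rose in cells, gave a log2 fold change of -0.20 (q = 0.496) and ATP5ME -0.22 (q = 0.598). The calls in tumors depended on single libraries. Without shCtrl tumor 1 the number of lower members was 0, without shCtrl tumor 2 or 4 it was 1, and without shCtrl tumor 5 it was 10. Without sh#1 tumor 5, sh#2 tumor 1 or sh#2 tumor 5 it was 3, and with the mouse to human ratio as a covariate it was 2 (ATP5MF and UQCC3).

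**Figure D3:**
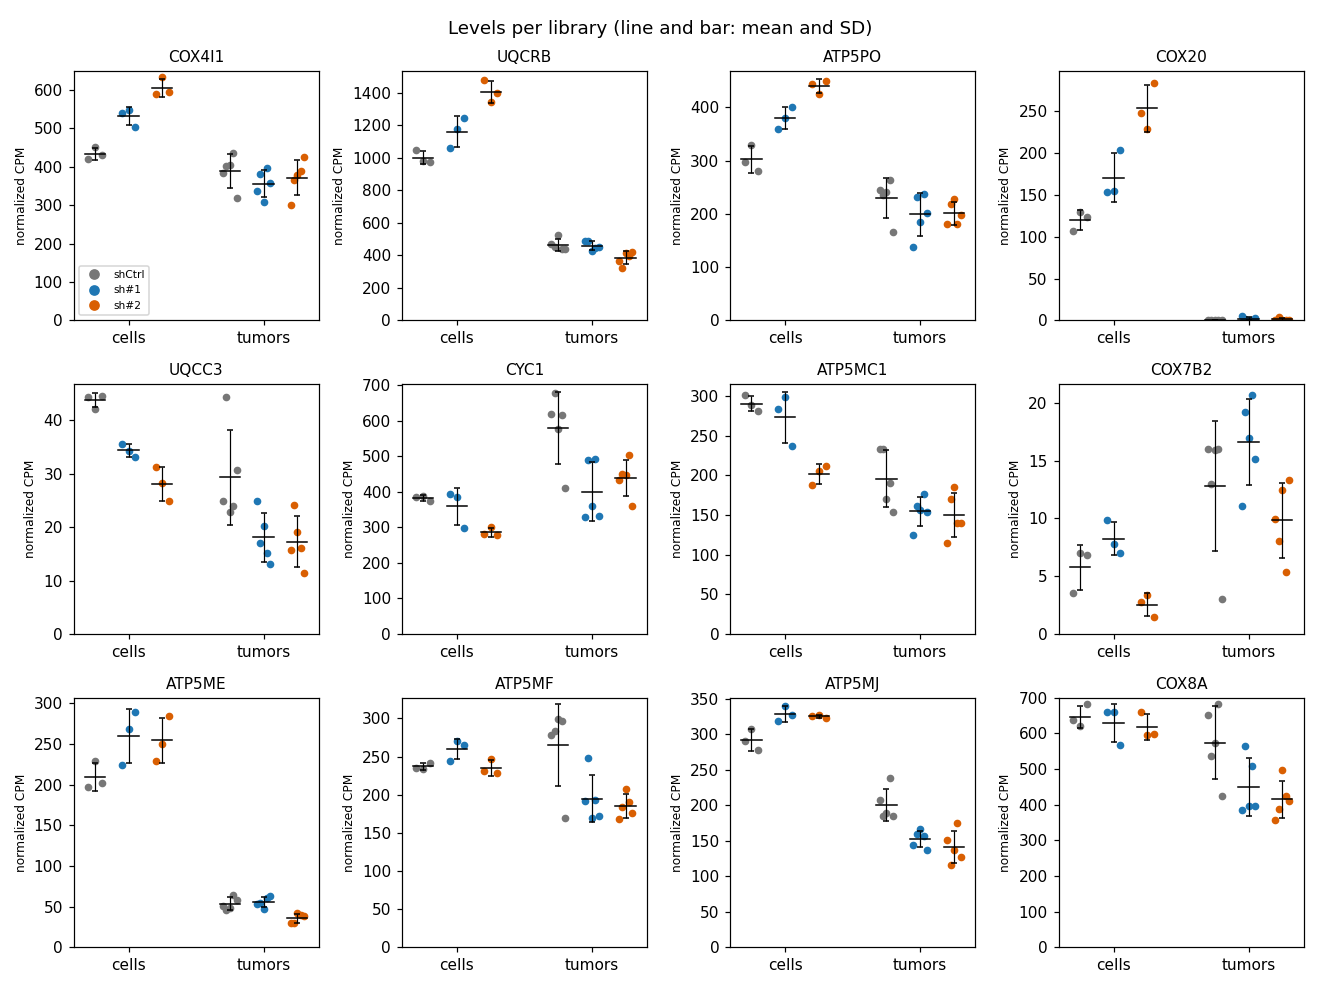
Normalized CPM of 12 members in each library of cells (3 per group) and tumors (5 per group), with group means and SDs as lines and bars and the axis from 0. COX4I1, UQCRB, ATP5PO and COX20 step up in cells, the means of UQCC3 lie below shCtrl for each hairpin in both systems (past the threshold alone only for sh#2 in cells), and for ATP5MF, CYC1 and COX7B2 the lowest shCtrl tumor is tumor 5.

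With the hairpins apart, sh#1 tumors had 2 members lower (0.708% of all genes) and 0 higher (0.773%; 2 at an unadjusted p under 0.05 and 0 by DESeq2), and sh#2 tumors had 7 lower (1.32%) and 0 higher (1.36%; 0 at an unadjusted p under 0.05 and 0 by DESeq2). CYC1 (-0.53 ± 0.13, q = 0.0368) and UQCRH (-0.39 ± 0.11, q = 0.0688) fell in sh#1. Neither call held without sh#1 tumor 1, the smallest library, where 0 members were lower. The number was also 0 without sh#1 tumor 3 or 5 or without shCtrl tumor 1, 2 or 4. UQCRH was found at 812, 737, 791, 781 and 578 CPM in the shCtrl, 488, 610.4, 593, 554 and 567 CPM in the sh#1 and 556, 609, 704, 699 and 674 CPM in the sh#2 tumors. In sh#2 the largest falls were those of UQCRHL (-1.12 ± 0.29, q = 0.0341), ATP5ME (-0.57 ± 0.17, q = 0.0824) and ATP5MF (-0.52 ± 0.13, q = 0.035), and ATP5MG, ATP5MJ, COX17 and COX8A fell too. UQCRHL is an intronless copy of UQCRH with 4 to 20 counts a tumor, and reads of the 2 genes may have been exchanged. Of 8 members tested in the membrane part of complex V, 4 fell in sh#2.

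**Figure D4:**
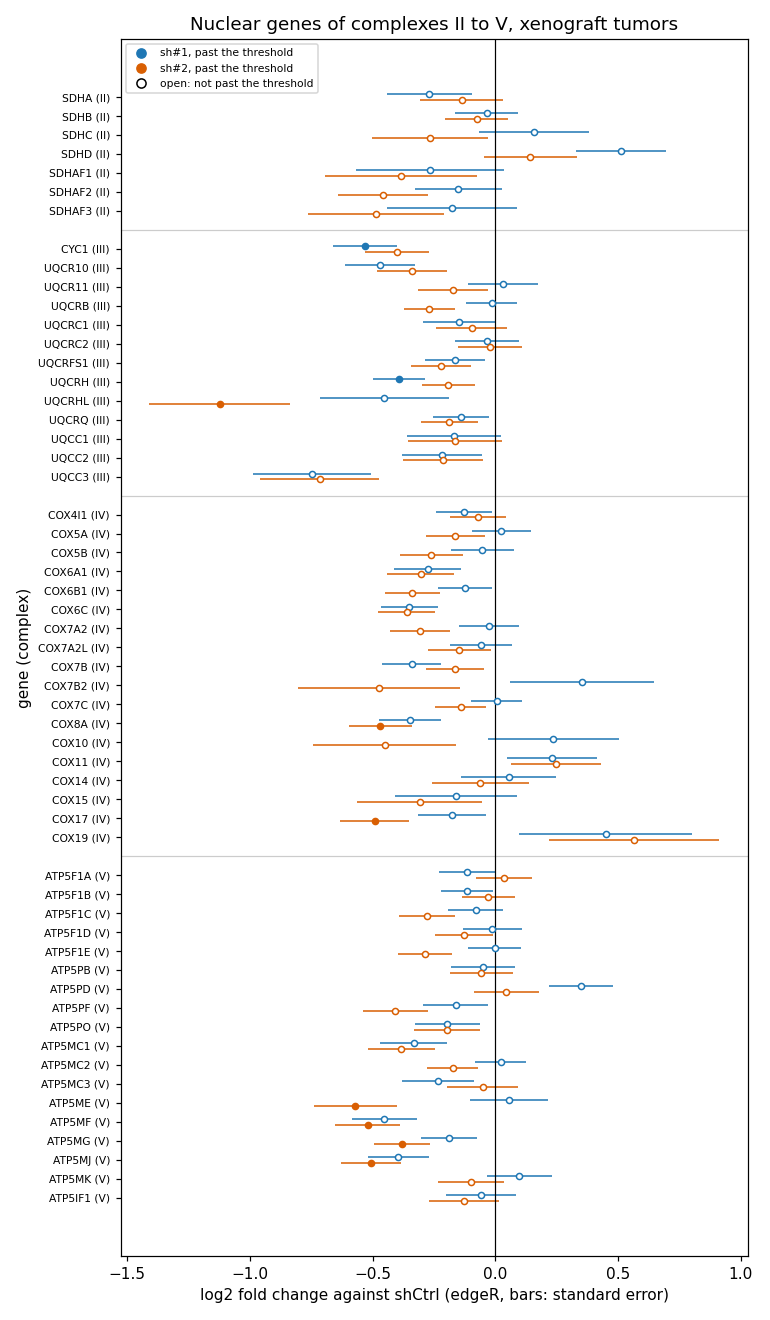
Log2 fold change of each member tested in tumors for sh#1 (blue) and sh#2 (orange) against shCtrl, with edgeR standard errors as bars and filled points for q under 0.1. For sh#2, 51 of 56 members lie below 0, and 7 are filled.

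ATP5ME was the 1 member past the threshold between the hairpins in tumors, and 4 other members (ATP5PD, UQCRB, ATP5F1E and UQCRHL) had ranges that did not overlap between sh#1 and sh#2 without passing. How many of all genes separated in this way was not counted, so these 4 are not read as a hairpin difference. ATP5ME was measured at 51.4, 46.5, 47.9, 64.9 and 58.2 CPM in the shCtrl, 52.7, 54.3, 47.7, 60.9 and 62.6 CPM in the sh#1 and 29.9, 29.6, 42.1, 39.5 and 38.2 CPM in the sh#2 tumors. The sh#2 tumors lay below all others, while sh#1 and shCtrl tumors overlapped, and sh#1 was higher than sh#2 (0.63 ± 0.17, q = 0.0863). Higher in sh#1 than in sh#2 were 0.642% of all genes and lower 0.544%, and 0 members were lower (edgeR; 0 at an unadjusted p under 0.05 and 0 by DESeq2). This call was lost in 12 of 23 alternatives, among them the fit with library totals only.

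Complex II had 0 members past the threshold in tumors (edgeR and DESeq2; 0 at an unadjusted p under 0.05 for CDH11 KD). SDHA, SDHB, SDHC and SDHD had log2 fold changes of -0.20, -0.06, -0.03 and 0.34, and SDHC turned to 0.08 with the mouse to human ratio as a covariate. The subunit c genes ATP5MC1, ATP5MC2 and ATP5MC3 gave -0.36, -0.07 and -0.14, with the lowest q at 0.158 for ATP5MC1. Among isoforms of complex IV, COX6A1 (-0.29), COX6B1 (-0.23), COX7A2 (-0.16), COX7A2L (-0.10), COX7B (-0.25) and COX7B2 (0.00) were not past the threshold. COX8C had at most 1 count and COX6B2 at most 5. COX20, at 272 to 584 counts in cells, had 0 to 3 counts in every tumor and could not be tested, and whether the 2 count tables treat this gene alike was not tested.

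The median over subunits was -0.15 and that over assembly factors -0.23. For the 34 genes tested under the same complex I symbols it was -0.14, with 1 higher and 0 lower (edgeR; 8 lower at an unadjusted p under 0.05 and 1 by DESeq2). Among 29 other assembly and import genes COA4 fell (-0.42 ± 0.11, q = 0.0695), and the median was -0.15. Of the mitochondrial DNA partners MT-CO1 rose (0.34 ± 0.09, q = 0.0723), and the other 5 did not pass. The 6 regulators had log2 fold changes between -0.16 and 0.21 in tumors without passing, with YY1 at 0.01.

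Across the 55 members tested in both systems, 37 had a positive value in cells and a negative one in tumors, 12 were negative in both, 3 positive in both and 3 negative in cells and positive in tumors. The 10 members that rose in cells and were tested in tumors all had negative values there. Values were negative for 50 of all 56 members tested in tumors and positive for 42 of all 59 tested in cells. Opposite signs are therefore frequent among the members as a whole, and these counts do not show a reversal of single genes. Of the 6 that fell in tumors, 3 (ATP5MF, ATP5MJ and COX6C) had positive values in cells and 3 (CYC1, UQCC3 and COX8A) negative ones. The difference between cells and tumors was not tested, since the 2 systems were sequenced and counted separately.

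**Figure D5:**
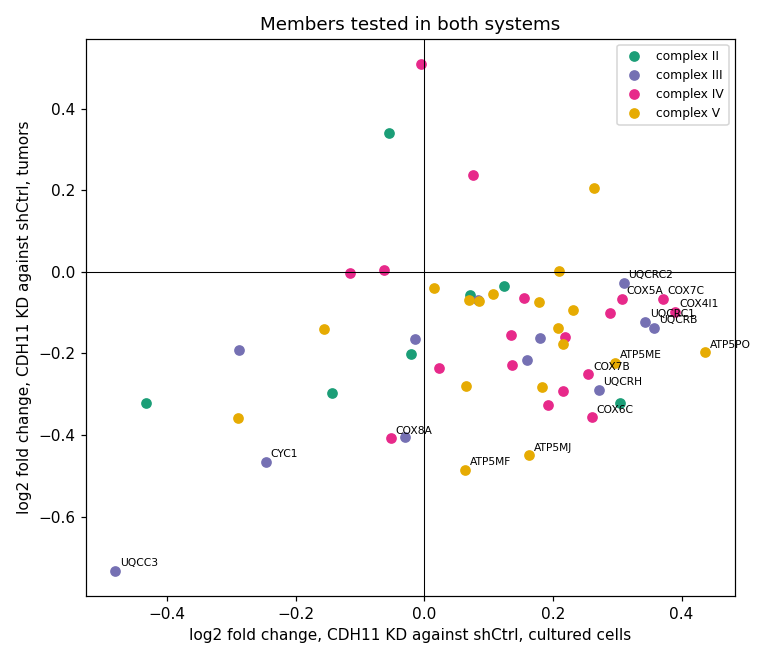
Log2 fold change for CDH11 KD against shCtrl in cultured cells (horizontal) and in tumors (vertical) for the 55 members tested in both, colored by complex, with names for members past the threshold in either system. Most points (37) lie at the lower right, and UQCC3 stands at the lower left, at -0.48 in cells and -0.73 in tumors.

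Host cell content was read from mouse genes. Summed over their marker lists, mouse fibroblast genes (5 of 5 listed) reached 724 to 2594 CPM of the human and mouse total in shCtrl, 506 to 1340 in sh#1 and 693 to 3808 in sh#2 tumors, and leukocyte genes (4 of 4) 183 to 514, 186 to 418 and 224 to 847. Endothelial genes (3 of 3) ranged from 18.3 to 34.6, from 14.9 to 65.8 and from 26.8 to 53.4. Skeletal muscle genes (3 of 3) reached 147 in shCtrl, 1591 in sh#1 and 194 in sh#2, and adipocyte genes (3 of 3) 45.9, 2279 and 183. Of 2 keratinocyte genes 1 was listed, and the sum was at most 0.979. The groups overlapped in every list, and their part in the results was not tested. Of 9 carcinoma markers, 8 were listed in cells and 9 in tumors and 7 were tested in each, with MYC higher in CDH11 KD cells (1.02 ± 0.11, q = 8.63e-06) and none past the threshold in tumors.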

How the data were processed

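The deposited values were raw counts per gene, which the authors made from single reads of 9 libraries of cultured cells and 15 of tumors. Per the labels and the study's methods, cell reads were trimmed in CLC Genomics Workbench and mapped to hg38 with RaNAseq, and tumor reads were trimmed with Trim Galore and mapped to hg38 with HISAT2. The counting tool, the annotation, the use of molecular identifiers and the way human and mouse reads were separated are not given in the sources used here. How they bear on genes with near copies, such as UQCRH and UQCRHL, was not tested. Of the genes in the cell table, 13 with blank cells are not analysed here.

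Human counts of cells and of tumors were fitted separately with the quasi-likelihood test of edgeR 4.0.16 (R 4.3.3, TMM scaling, filterByExpr with a minimum count of 10, robust), with Benjamini-Hochberg q values over all genes tested. CDH11 KD was tested with both hairpins as 1 group, and each hairpin in a fit of 3 groups. Thresholds were q under 0.05 in cells and under 0.1 in tumors. Alternatives were DESeq2 1.42.0, upper quartile scaling, library totals only, other filters, a replicate block, the mouse to human ratio as a covariate, pseudogene counts added to their parents, and leaving out each library. The fit was tested on simulated data. The 3 hairpin comparisons of a system share libraries. Nothing in the labels says that replicates of cells came from separate cultures, so that p-values measure only the spread between these samples, and each tumor group is registered as 1 sample that covers 5 tumors.

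The members and lists were chosen with earlier results of these data known. Named were ATP5ME, ATP5PO and ATP5MF, each member past the threshold for CDH11 KD, the 3 largest rises and falls among members past the threshold in each hairpin comparison, the subunit c genes, the subunits of complex II and the isoforms of complex IV. UQCR10, SDHD in the hairpin comparison, ATP5MG and COX17 were named after their values were seen.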

Additional observations from a re-analysis of the deposited data

Results flagged for a closer look

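In 90 groups of 5 tumors examined, 4 held a tumor whose gap to the others was above the Dixon limit, and chance gives about 1 in 20 groups. The shCtrl tumor 5 was the lowest for ATP5MF (170.1 CPM, with 278 to 299 CPM in the others), for COX7A2 (190.0 CPM, with 273 to 296 CPM) and for COX7B2 (3.06 CPM, with 13.0 to 16.1 CPM). For UQCRC2, sh#1 tumor 2 was the highest at 160.5 CPM, with 125 to 134 CPM in the other sh#1 tumors.

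Of the 18 members past the threshold between the hairpins in cultured cells (edgeR, sh#1 minus sh#2, log2), the 3 largest in each direction are given. Higher in sh#1 were COX7B2 (1.67), COX10 (0.59, lost in 8 of 16 alternatives) and SDHB (0.44), and lower were COX20 (-0.56), COX6C (-0.29) and UQCRB (-0.28). In tumors ATP5ME differed by 0.63.

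For ATP5MJ, UQCRH, ATP5MG and UQCRQ every CDH11 KD library of cells lay above the shCtrl mean and every CDH11 KD tumor below it. How many of all genes do so was not counted, so the pattern does not set these members apart. ATP5MJ gave 0.16 in cells and -0.45 in tumors, and UQCRH 0.27 and -0.29. ATP5MG gave 0.18 and -0.28, and UQCRQ 0.18 and -0.16. The difference between the systems was not tested.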

How the results depend on the processing

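With library totals only (chosen after seeing the data) the cells had 3 members higher and 2 lower for CDH11 KD, 12 and 2 for sh#1, 6 and 19 for sh#2, and 30 and 1 for sh#1 against sh#2. The medians of all genes were then -0.158, -0.0763, -0.265 and 0.197 in that order. Shares of all genes past the threshold were not counted for the alternatives in this section. The members' median turned to -0.027 (CDH11 KD) and -0.14 (sh#2), ATP5MF to -0.0931, COX6B1 to -0.027, SDHB to -0.079 and SDHC to -0.0357. In the fit of 3 groups 25 were higher and 5 lower in CDH11 KD cells. In sh#1 cells 1 was lower with upper quartile normalization and 1 with at least 10 counts in every library, and DESeq2 gave 6 higher in sh#1 than sh#2.

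Deviations of same-numbered libraries had correlations of -0.01 to 0.06 in cells (median 0.021) and -0.09 to 0.12 in tumors (median -0.014). Those of different-numbered libraries were -0.057 to 0.043 (median -0.0125) and -0.18 to 0.177 (median 0.009). These values are small and cannot exclude a pairing by number. With the replicate block 6 members were higher and 1 lower in CDH11 KD cells, and 0 were higher in sh#1 than sh#2 tumors.

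In tumors, the mouse to human ratio as a covariate left 2 lower for CDH11 KD and 4 for sh#2, and turned SDHC to 0.0806. Upper quartile normalization gave 11 lower for sh#2, and no filter gave 4 lower for sh#1. For sh#1 against sh#2, 0 were higher with library totals only and with no filter. COX7B2 in tumors, near 0, turned to -0.0105 (upper quartile), -0.0247 (library totals), -0.027 (no filter), -0.0613 (3 groups) and -0.0029 (pseudogenes added).

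Leaving out 1 library gave 3 to 12 higher and 0 to 2 lower for CDH11 KD cells, 12 to 21 higher for sh#1 cells (12 without shCtrl 1), and 6 to 11 higher for sh#1 against sh#2 cells. In tumors it gave 0 to 10 lower for CDH11 KD, and 0 to 8 lower and 0 to 1 higher for sh#1 (8 lower without shCtrl 5, 0 lower and 1 higher without sh#1 tumor 1). It gave 1 to 17 lower for sh#2 (17 without shCtrl 5, 1 without sh#2 tumor 1) and 0 to 1 higher for sh#1 against sh#2. Log2 fold changes that changed sign were those of COX7B2 (-0.32 to 0.12 in cells and -0.19 to 0.10 in tumors), SDHA (-0.0553 to 0.0287, cells), SDHD (-0.11 to 0.024, cells), SDHC (-0.20 to 0.16, tumors) and UQCRC2 (-0.11 to 0.0435, tumors), and these 6 were not past the threshold in that comparison.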
